A study of Mus musculus with 12 samples.

Results

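The replication-dependent histone genes described here are the genes of the deposited count tables whose symbol in the GENCODE M21 mouse annotation starts with Hist1h, Hist2h, Hist3h or Hist4h, with pseudogenes left out. This rule gave 65 of the 46603 genes counted. They comprised 6 H1, 18 H2A, 16 H2B, 12 H3 and 13 H4 genes. The Hist1h cluster held 52 of them, Hist2h 10, Hist3h 2 and Hist4h 1. Another 3 genes were left out as pseudogenes, and Hist1h2bm and Hist1h2bh were not among the identifiers counted. The libraries were total RNA sequencing of wild-type (WT) mice and of knockout (KO) mice for NM1, nuclear myosin 1, an isoform encoded by Myo1c. All mice were C57/Bl6 and 8 months old. Each genotype had 3 libraries labelled blood, drawn from the submandibular vein, and 3 labelled spleen, from the tip of the organ. The sources used here do not say how the NM1 allele was made, whether each library is a separate mouse, or how ribosomal RNA was removed, so p-values measure the spread between these libraries.

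Replication-dependent histones package newly made DNA. Their genes are transcribed mainly in S phase, have as a rule no introns, and give mRNAs that end just after a short stem-loop in place of a poly(A) tail. SLBP, the stem-loop binding protein, binds that structure, and NPAT drives transcription of the clusters when the cell enters S phase. Some of these genes are also known to give polyadenylated mRNAs in cells that have stopped dividing.

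The stem-loops of the genes that the results turn on are shown first, because they mark which gene models end at the processing site and which run on past it. They were read from the GENCODE M21 transcripts in the sense strand, 5′ to 3′, with the 16-base stem-loop in capitals.
Hist1h1c: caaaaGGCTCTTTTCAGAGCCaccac
Hist3h2ba: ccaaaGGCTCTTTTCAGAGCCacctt
Hist1h2ap: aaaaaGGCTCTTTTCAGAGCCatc
Hist1h2ao: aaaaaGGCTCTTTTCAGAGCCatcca
Hist1h4i: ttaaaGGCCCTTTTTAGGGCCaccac
Hist1h4n: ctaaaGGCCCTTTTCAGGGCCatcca
Hist1h4m: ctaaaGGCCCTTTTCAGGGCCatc
The search looked for the conserved 16-base histone pattern, with a fully paired stem, within 100 bases after the stop codon. It found a match in 44 of the 65 genes, 21 to 58 bases after the stop, in 8 distinct sequences. The form of Hist1h1c, Hist1h2ap and Hist1h2ao was shared by 24 genes of all types but H4, and that of Hist1h4n and Hist1h4m by 7 H4 genes. Hist1h4i shared its form with Hist2h4. Among 21634 other protein-coding genes 6 held a match (0.0277%). They were the histone genes H2afx and H2bfm, the 2 histone genes absent from the count tables, Gm9507 and Ttc14.

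The gene models differ at their 3′ ends, which decides which reads could be counted. Models of 19 genes ended at the stem-loop (within 50 bases), and 25 ran on past it. The model of Hist1h2ap, an H2A gene, ended 3 bases past its stem-loop, whereas that of Hist1h1c, the gene of linker histone H1.2, ran 840 bases past it. No stem-loop was found in 21 models, of which 17 ended by the stop codon and 4 had a long 3′ end. One of those 4 was Hist1h2bc, an H2B gene whose model has 2 exons. A missing match says only that the letters are not in the annotated transcript.

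Promoters were compared because members of 1 type share promoter elements while differing widely in level. RefSeq windows (GRCm38.p6), from 250 bases before to 50 after each start, were matched for 59 of the 65 genes. The 4 stretches below end at the base before the start, stop short of any annotated exon and are given 5′ to 3′ on the gene's strand. Capitals mark matches to TATAAA on the gene's strand, and to CCAAT, ATGCAAAT or AAACACA on either strand.
Hist1h1c (chr13:23738557-23738806, + strand): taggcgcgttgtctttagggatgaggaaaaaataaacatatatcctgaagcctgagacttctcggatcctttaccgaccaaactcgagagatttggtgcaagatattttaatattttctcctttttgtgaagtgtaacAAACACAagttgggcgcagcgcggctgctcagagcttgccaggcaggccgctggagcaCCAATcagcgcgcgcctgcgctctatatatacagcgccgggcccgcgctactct
Hist1h2ao (chr13:21810198-21810366, + strand): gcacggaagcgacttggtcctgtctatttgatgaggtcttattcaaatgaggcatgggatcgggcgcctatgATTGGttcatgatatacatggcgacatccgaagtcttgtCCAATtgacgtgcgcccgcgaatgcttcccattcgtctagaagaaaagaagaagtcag
Hist1h4i (chr13:22041363-22041612, - strand): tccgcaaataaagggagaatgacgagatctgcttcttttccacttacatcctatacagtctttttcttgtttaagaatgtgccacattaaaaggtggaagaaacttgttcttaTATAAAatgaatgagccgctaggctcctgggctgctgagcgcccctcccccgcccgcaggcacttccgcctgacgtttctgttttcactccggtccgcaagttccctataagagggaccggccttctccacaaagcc
Hist1h4n (chr13:21832198-21832447, - strand): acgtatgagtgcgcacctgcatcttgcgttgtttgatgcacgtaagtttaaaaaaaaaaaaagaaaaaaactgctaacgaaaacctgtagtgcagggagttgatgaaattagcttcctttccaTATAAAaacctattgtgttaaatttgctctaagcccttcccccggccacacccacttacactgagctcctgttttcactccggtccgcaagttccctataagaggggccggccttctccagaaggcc
The CCAAT box was present in every matched H1, H2A, H2B and H3 window and in 3 of 12 H4 windows, 50 of 59 in all (84.75%, against 37.41% of 32851 RefSeq windows). TATAAA was in 30 of 59 (50.85%, against 8.319%). The octamer ATGCAAAT was in 7 of 17 H2A and 5 of 14 H2B windows and in no other type (20.34% of members, against 1.735%). AAACACA, the H1 box, was in 5 of 6 H1 windows, that of Hist1h1c included (13.56% of members, against 7.184%). A match is a description of the letters, not of binding.

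On the chromosomes, the Hist1h genes lie in 2 blocks of chromosome 13, one of 22 genes over 328 kb and one of 30 genes over 404 kb. The Hist2h genes lie on chromosome 3, the Hist3h genes on chromosome 11 and Hist4h4 on chromosome 6. A head-to-head H2A and H2B pair, with 175 to 305 bases between the genes, was found 12 times. Of the 65 members, 34 share over 50% of their 50-base stretches with transcripts of other genes, and the median share was 55.0%. Either strand was counted, and some of these transcripts overlap the member at its own place, so sharing need not mean a copy. Counts of such genes depend on how multiply mapped reads and reads in overlapping genes were treated. The 5 genes with every stretch shared (Hist2h2aa1, Hist2h2aa2, Hist2h2bb, Hist2h3b and Hist2h3c1) had 0 counts in all 12 libraries. Each of them also overlaps another annotated gene. Other counted genes overlapped 21 members on the opposite strand and 7 on the same strand. The strand setting of the counting is not given in the sources used here.

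The libraries fell into 2 kinds that cross the labels. Globin genes took 48.9% to 56.1% of counts in 6 libraries (globin-rich, with 9317793 to 12096089 counts in all) and 0.846% to 5.90% in the other 6 (globin-poor, with 23140497 to 28243206). Under the blood label, WT 01, KO 02 and KO 03 were globin-rich, and under the spleen label WT 02, WT 04 and KO 03. Each kind thus held 3 libraries of each label and 3 of each genotype. In globin-rich libraries the markers of spleen red pulp macrophages summed to 11.1 to 29.3 counts per 1000000 counts (CPM), with C1qa at 0 in 4 of them, including under the spleen label. Both labels had 1068 to 1639 CPM of them among globin-poor libraries. Late red cell markers summed to 92744 CPM or more where globin was high and to 888 to 10466 where it was low, and platelet markers to 2576 to 8025 against 217 to 370. In these marker sums the libraries thus stood apart by kind under either label, though some of the sums also separated the labels within a kind. "Blood" and "spleen" are used below as labels only. Gene-level counts of Myo1c cover its other isoforms as well, so they do not check the knockout. All levels below are CPM with the 11 globin genes left out, and a count of 0 allows up to 3 counts, which is 0.515 to 0.733 CPM where globin was high and 0.109 to 0.138 CPM where it was low (counting error only).

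Counts were concentrated in few genes. Any count was found for 59 of the 65 genes, 19 had counts in every library, 26 reached a mean of 1 CPM and 6 a mean of 10 CPM. Beside the 5 fully shared genes, Hist1h2aa was the only gene at 0 throughout. Per kb of exon, the highest means over the 12 libraries were those of Hist1h1c (201 CPM per kb), Hist1h2bc (118), Hist1h2ap (86.5), Hist1h4i (53.9) and Hist3h2ba (18.2). The 7 highest genes by CPM, which were these 5 with Hist2h2be and Hist1h4n, held 79.1% to 95.2% of all histone counts.

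The summed level of the 65 genes was 633, 688 and 566 CPM in the globin-rich blood-labelled libraries (WT 01, KO 02, KO 03) and 1203, 1222 and 1308 CPM in the globin-rich spleen-labelled ones (WT 02, WT 04, KO 03). In the globin-poor libraries it was 483, 359 and 430 CPM under the blood label (WT 03, WT 04, KO 04) and 148, 277 and 220 CPM under the spleen label (WT 01, KO 01, KO 04). The 4 groups of 3 did not overlap, and the label order was opposite in the 2 kinds. Hist1h1c and Hist1h2bc together made up 79.9% to 88.3% of the sum in globin-rich libraries and 26.9% to 45.6% in globin-poor ones. Without those 2 genes the kinds overlapped, at sums of 102 to 154 CPM (globin-rich) against 80.6 to 348 CPM (globin-poor).

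**Figure D1:**
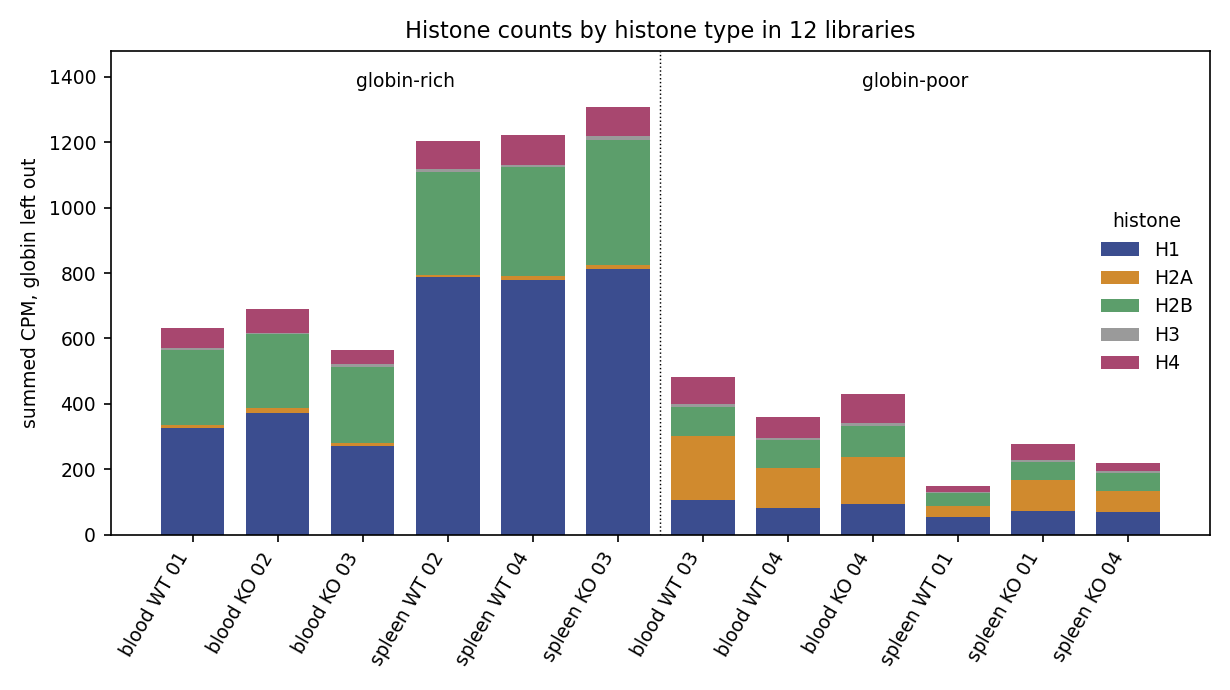
Summed CPM with globin left out, by histone type, in each library (bars from 0; dotted line between the 6 globin-rich and 6 globin-poor libraries). H1 and H2B fill most of the globin-rich bars, and H2A takes 23.2% to 40.8% of the globin-poor bars against 0.597% to 2.13% of the globin-rich ones.

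The makeup by histone type differed between kinds. H1 genes held 47.8% to 65.4% of histone counts in globin-rich and 21.7% to 35.6% in globin-poor libraries, with no overlap. H2A genes held 0.597% to 2.13% against 23.2% to 40.8%. H4 genes held 6.80% to 10.4% against 12.2% to 20.6%, also without overlap. H3 genes held at most 2.31% in any library, and H2B genes overlapped between kinds (26.3% to 41.2% against 18.3% to 26.8%). By cluster, Hist1h genes held 92.2% to 98.5% of the globin-rich and 81.5% to 85.6% of the globin-poor sums, and Hist2h genes 0.760% to 2.23% against 6.04% to 13.2%.

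Globin-rich libraries were compared with globin-poor ones in a fit with genotype and label as terms. Globin counts alone set the kinds, and no histone gene was used. Only 25 of the 65 members had enough counts to be tested, and a gene that passes that filter only through the kind where it is high had to differ. Of these, 14 were called higher and 2 lower in globin-rich libraries (edgeR quasi-likelihood test, Benjamini-Hochberg adjusted p below 0.05). Over all 14730 genes tested, 24.0% were called higher and 30.2% lower. The median log2 difference of the tested members was 2.08, and that of all genes tested was -0.11. That median rests on the filter: with no filter, 59 members were fitted, 29 lay above 0 and 30 below, and their median was -0.02 against 0.62 over all genes. On library size alone the tested members' median was -0.08 against -2.23 over all genes. Scaling moves these differences as a whole: on library size alone, 8 members were called higher and 8 lower, and the direction of Hist3h2ba, Hist1h2ae and Hist1h2bj turned. The other 13 called members kept their direction under each scaling in which they were tested (Hist1h3d was not tested with globin left out). For Hist1h2be and Hist1h4c almost nothing of the difference was left on library size alone (0.037 and 0.077, against 2.08 and 2.10). Leaving out any of spleen KO 03, spleen WT 04 or blood KO 03 gave 5 members lower, and leaving out blood KO 02 or spleen WT 02 gave 4. Shares of all genes called are not given for these alternatives. On CPM with globin left out the median of all genes was -1.17, so a gene at equal CPM in both kinds stood above most others. With the tissues' cell makeup unknown, fewer cells of a type and less RNA per cell cannot be told apart.

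Hist1h1c encodes H1.2, a linker histone that binds where DNA enters and leaves the nucleosome. Its level in globin-rich libraries was 324, 370 and 269 CPM under the blood label and 785, 774 and 812 CPM under the spleen label. In globin-poor libraries it was 96.5, 71.5 and 81.8 CPM under the blood label and 52.0, 65.7 and 66.2 CPM under the spleen label. Every globin-rich library was above every globin-poor one, with means of 556 and 72.3 CPM (7.69-fold). The log2 difference in the fit was 3.91 ± 0.39 (SE), with an edgeR adjusted p of 2.6e-06. It made up 99.2% to 99.8% of H1 counts in globin-rich libraries and 87.8% to 98.6% in globin-poor ones. Together the other 5 H1 genes reached at most 6.11 CPM where globin was high and 11.4 CPM where it was low.

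Hist1h2bc, which encodes a core histone H2B, followed the same order. Its level was 194, 180 and 195 CPM (blood label) and 277, 302 and 342 CPM (spleen label) in globin-rich libraries. In globin-poor libraries it was 38.5, 25.2 and 33.9 CPM, then 15.6, 19.3 and 20.7 CPM. The kinds did not overlap, and the log2 difference was 4.40 ± 0.37 (SE, edgeR adjusted p = 8.8e-07). Its head-to-head neighbour Hist1h2ac, an H2A gene, stood far lower, at 0.955 CPM per kb in globin-rich and 0.200 in globin-poor libraries on average, against 215 and 22.1 CPM per kb for Hist1h2bc.

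Among H4 genes, Hist1h4n and Hist1h4m were low in globin-poor libraries, with 14 to 22 counts of Hist1h4n and 0 to 22 of Hist1h4m in each. Hist1h4n was at 6.18, 9.30 and 4.51 CPM (blood label) and 22.0, 23.0 and 17.7 CPM (spleen label) in globin-rich libraries, and at 0.565 to 0.881 CPM in globin-poor ones. Its log2 difference was 5.19 ± 0.38 (SE, edgeR adjusted p = 1.5e-07). Hist1h4m had the reverse label order in globin-rich libraries, at 17.2, 16.1 and 7.51 CPM under the blood label and 4.13, 4.89 and 4.94 CPM under the spleen label. It was at 0 in all 3 globin-poor libraries labelled spleen and at 0.341 to 0.969 CPM in those labelled blood. Hist1h4n and Hist1h4m passed the filter through their globin-rich libraries, so their calls as higher there describe where their reads lay. Both gene models end at the stem-loop and share 85.6% (Hist1h4n) and 89.8% (Hist1h4m) of their 50-base stretches with other transcripts, chiefly each other, so their separate levels are uncertain.

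Further members called higher in globin-rich libraries were low in CPM. They included Hist1h2bn (log2 difference 5.28 ± 0.61 SE), Hist1h3i (4.13 ± 0.71), Hist1h4h (3.62 ± 0.63) and Hist1h2ac (3.37 ± 0.53), and edgeR adjusted p-values of these 4 were 0.00029 or below. In each globin-poor library Hist1h2bn had 1 to 10 counts, Hist1h2ac 4 to 24, Hist1h3i 0 to 23 and Hist1h4h 4 to 32. All 4 passed the filter through their globin-rich libraries, so their calls describe where their reads lay and support nothing further. Hist1h2bn lay at 1.69 to 11.9 CPM (globin-rich) against 0.0403 to 0.440 CPM (globin-poor), without overlap. Hist1h3i was at 1.47 to 5.48 CPM against 0 to 0.981 CPM, without overlap. Hist1h4h overlapped between kinds, at 1.37 to 8.31 CPM against 0.161 to 1.41 CPM. In all, 7 of the 65 members had every globin-rich library above every globin-poor one in CPM, and 7 the reverse. Among the 25 tested members these were 7 and 3, and over all genes tested the shares were 3.33% and 50.1%.

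**Figure D2:**
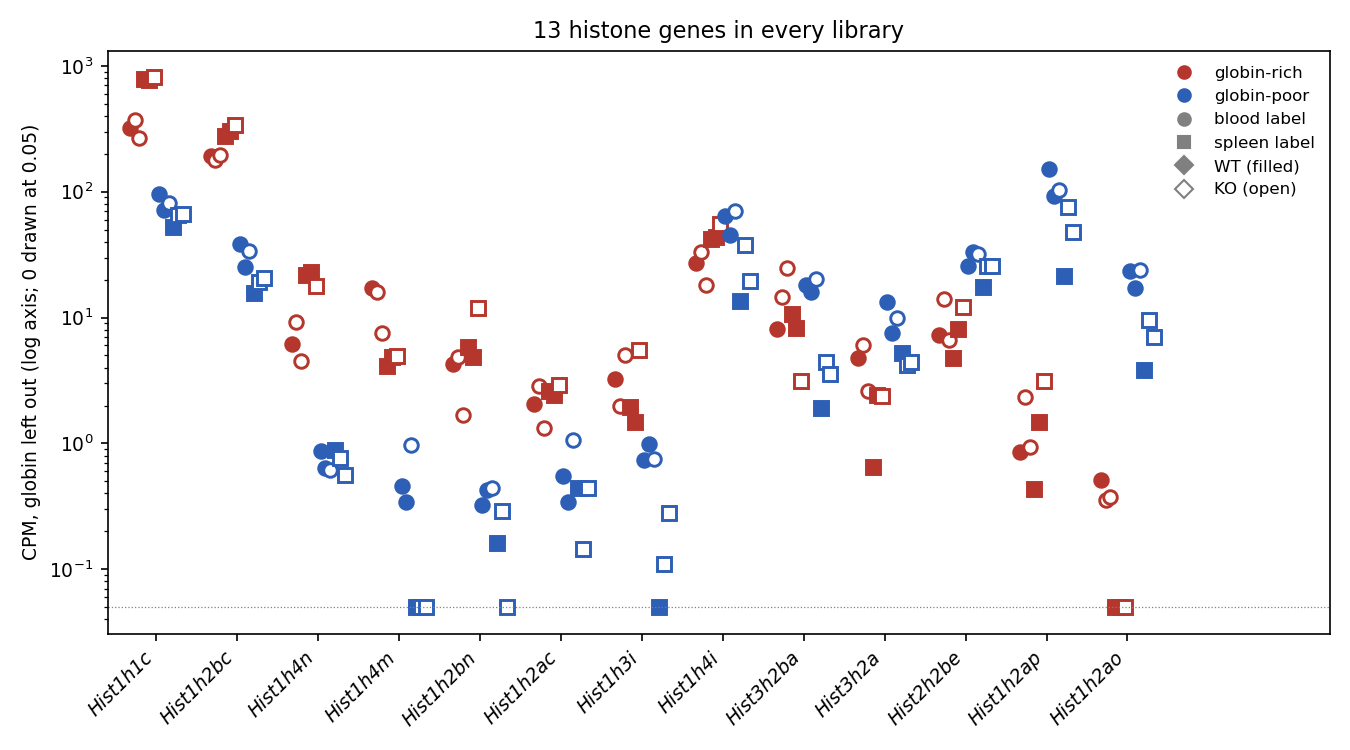
CPM with globin left out (log axis, 0 drawn at 0.05) of 13 histone genes in each library; colour gives the kind, shape the label and fill the genotype. Hist1h1c, Hist1h2bc and Hist1h4n are higher in every globin-rich library, and Hist1h2ap and Hist1h2ao in every globin-poor one.

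Both members called lower in globin-rich libraries were H2A genes. Hist1h2ap was at 151, 91.8 and 103 CPM (blood label: WT 03, WT 04, KO 04) and 21.5, 75.6 and 48.0 CPM (spleen label: WT 01, KO 01, KO 04) in globin-poor libraries. In globin-rich libraries it lay between 0.435 and 3.11 CPM. The kinds did not overlap, and the log2 difference was -4.68 ± 0.51 (SE, edgeR adjusted p = 1.1e-05). Hist1h2ap had 2 to 17 counts in each globin-rich library and passed the filter through its globin-poor ones. Its call therefore describes where its reads lay and supports nothing further. Hist1h2ao was at 23.6, 17.1 and 23.7 CPM and at 3.81, 9.60 and 6.98 CPM in the same 6 libraries, and at 0 to 0.515 CPM in globin-rich ones, where it had 7 counts over the 6 libraries. The size of its difference rests on those few counts. It passed the filter through its globin-poor libraries alone, so its call is a description of where its reads lay and supports nothing further. Together they made up 73.5% to 89.7% of H2A counts in globin-poor libraries. Hist1h2ap shares 93.1% and Hist1h2ao 93.5% of its 50-base stretches with other transcripts, each other first, so reads cannot be placed between them with certainty. Each also overlaps an opposite-strand gene.

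Outside the Hist1h cluster, 5 genes had a mean of at least 1 CPM. Hist2h2be, an H2B gene whose model has a long 3′ end and no stretch shared with other transcripts, was at 25.9, 33.5 and 31.8 CPM (blood label) and 17.5, 25.7 and 25.9 CPM (spleen label) in globin-poor libraries. In globin-rich ones it was at 7.21, 14.1 and 6.57 CPM, then 4.79, 8.06 and 12.1 CPM. The kinds did not overlap in CPM, but the fit did not call the gene (log2 difference -0.53 ± 0.23 SE, edgeR adjusted p = 0.061).

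The Hist3h genes, an H2B and an H2A gene, overlapped between kinds. Hist3h2ba was at 8.06, 14.7 and 25.0 CPM (blood label) and 10.7, 8.31 and 3.11 CPM (spleen label) in globin-rich libraries. It was called higher there (1.60 ± 0.50 SE, edgeR adjusted p = 0.018), but the value was -0.59 on library size alone. Hist3h2a, at 0.653 to 6.08 CPM (globin-rich) against 4.20 to 13.4 CPM (globin-poor), was not called. The 2 H4 genes Hist4h4 (0.179 to 8.86 CPM over all libraries) and Hist2h4 (0 to 4.13 CPM) were not called either.

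Genes that make and process histone mRNA, and S phase genes, were taken from fixed lists. Of 23 tested genes of histone transcription and mRNA processing, 9 were lower and 0 higher in globin-rich libraries (edgeR adjusted p below 0.05), with a median log2 difference of -0.34. For this list and those below, the shares over all genes tested were 30.2% lower and 24.0% higher, with a median of -0.11. Slbp, whose product binds the stem-loop, lay at 102 to 427 CPM where globin was low and at 10.7 to 34.2 CPM where it was high, a log2 difference of -2.72 ± 0.33 (SE, edgeR adjusted p = 2.4e-05). Npat, the transcriptional activator of the clusters, was not called (-0.18 ± 0.20). Neither was Casp8ap2 (-0.23 ± 0.16), whose product takes part in histone mRNA transcription and processing, nor Lsm11 (-0.41 ± 0.25), a subunit of the U7 particle that cuts the 3′ end. Of 21 histone chaperones 15 were lower and 2 higher, of 11 replacement histones 7 were lower and 2 higher, and of 25 S phase genes 24 were lower and 0 higher, with a median of -3.07.

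Where globin was high, the S phase genes summed to 227 to 340 CPM. Where it was low they summed to 6562, 5978 and 7584 CPM under the blood label and to 1427, 5502 and 2754 CPM under the spleen label. Among the globin-poor libraries, the lowest S phase sum, that of spleen WT 01, went with the lowest Hist1h2ap, Hist1h2ao and Hist1h4i. Markers of erythroid progenitors ran in the same order at the low end, at 691 CPM in spleen WT 01, 2270 in spleen KO 04, 5408 in spleen KO 01 and 8959 to 9402 under the blood label. Their part in the histone levels was not tested.

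**Figure D3:**
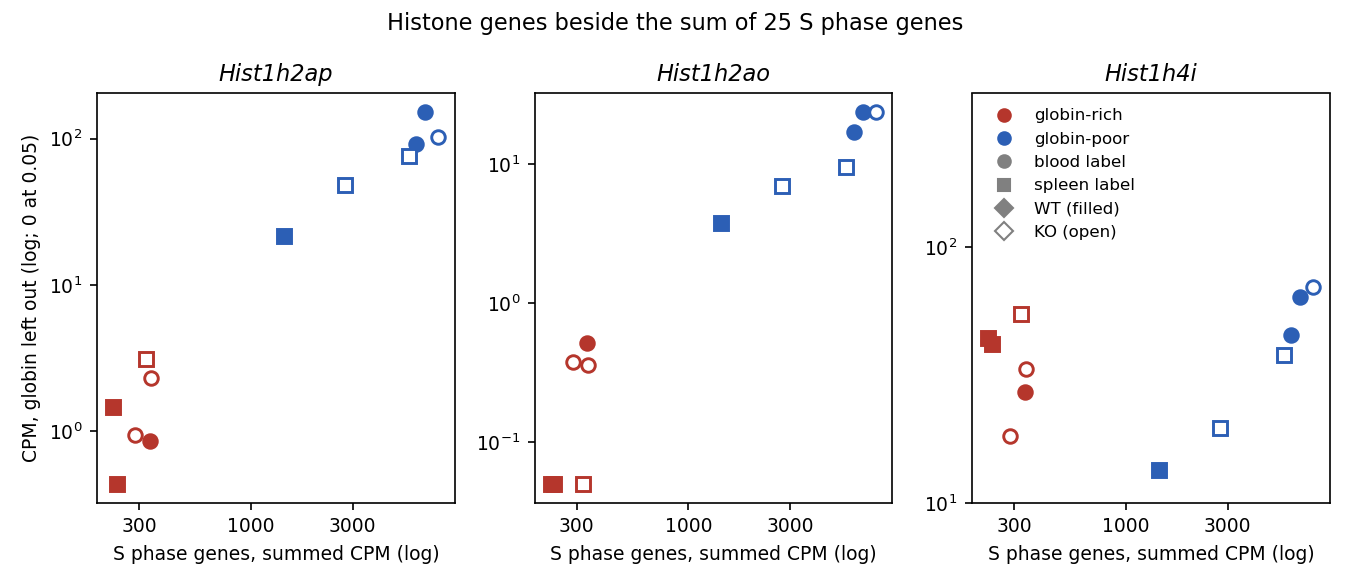
CPM of 3 histone genes against the summed CPM of 25 S phase genes in each library (log axes, 0 drawn at 0.05), as a description with no test. In the 6 globin-poor libraries the points of each gene lie lowest in spleen WT 01, and Hist1h4i in globin-rich libraries reaches 55.0 CPM at S phase sums of 227 to 340 CPM.

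The tissue labels were compared within each kind. In globin-poor libraries 40 members were tested, and 1 was called higher under the blood label and 0 lower, against 0.0609% and 0.0122% of 16422 genes (edgeR, adjusted p below 0.05). It was Hist3h2ba, an H2B gene on chromosome 11, at 18.1, 16.1 and 20.4 CPM under the blood label and 1.92, 4.41 and 3.59 CPM under the spleen label. The log2 difference was 2.69 ± 0.34 (SE, edgeR adjusted p = 0.049). Over the alternatives its adjusted p ran from 3.5e-11 to 0.27. The call was lost in 5 of the 6 fits that each left out 1 library (without any of blood WT 03, WT 04 and KO 04 or spleen WT 01 and KO 04). Without spleen KO 01, 19 members were called, and by DESeq2 15 were. The shares over all genes in those fits are not given here, so the counts cannot be read as particular to histone genes. Of the 40 tested members, 37 had differences above 0, with a median of 1.21 against -0.04 over all genes tested. An unadjusted p below 0.05 was found for 20 of them, and the share over all genes is not given here.

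In CPM, 26 of the 65 members had all 3 blood-labelled globin-poor libraries above all 3 spleen-labelled ones, and 0 the reverse. Of the tested members these were 23 of 40, while over all genes tested the shares were 9.13% and 25.2%. They came from every type, with 5 of 6 H1, 5 of 18 H2A, 5 of 16 H2B, 5 of 12 H3 and 6 of 13 H4 genes. Hist1h1b, a linker histone gene, was at 2.16, 2.64 and 2.69 CPM under the blood label and 0.160, 1.42 and 0.524 CPM under the spleen label (log2 difference 2.01 ± 0.65 SE, edgeR adjusted p = 0.14). All 25 S phase genes had differences above 0 here (median 1.23), and none was called. Several marker sums also separated the labels among these libraries. Plasma cell markers summed to 643 to 790 CPM (blood label) against 1472 to 2249 CPM (spleen label), T cell markers to 545 to 641 against 783 to 1280 CPM, and B cell markers to 2743 to 3137 against 3195 to 5296 CPM. Late erythroid markers went the other way, at 8300 to 10466 CPM (blood label) against 888 to 4556 CPM (spleen label), as did the erythroid progenitor markers given above. The part of these cell types in the histone difference was not tested.

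In globin-rich libraries the order turned. Of 17 members tested, 0 were called in either direction (edgeR), against 0.0% higher and 0.00853% lower of 11728 genes. An unadjusted p below 0.05 was found for 7 of them, a count given without its share over all genes. DESeq2 called 1 higher and 4 lower under the blood label, and limma-voom 1 lower. The lowest edgeR adjusted p was 0.070, with Hist1h1c at a log2 difference of -1.62 ± 0.27 (SE) and Hist1h4i at -1.14 ± 0.19. Among the tested members, 2 had every blood-labelled library above every spleen-labelled one in CPM and 5 the reverse, against 7.7% and 3.82% of all genes tested. Without spleen KO 03, 4 members were called lower (shares over all genes are not given for these alternatives). Neutrophil markers summed to 3693 CPM in that library and to 515 to 1101 in the other 11. Platelet markers in the same libraries summed to 7338 to 8025 CPM (spleen label) against 2576 to 3969 CPM (blood label). Their part was not tested.

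Hist1h4i, an H4 gene, showed the turn in full. It was at 27.1, 33.4 and 18.2 CPM (blood label) and 42.0, 44.0 and 55.0 CPM (spleen label) in globin-rich libraries. In globin-poor ones it was at 64.0, 45.5 and 69.7 CPM (blood label) and 13.5, 37.8 and 19.7 CPM (spleen label). The difference between the label effects was added after the values were seen and tested in all 12 libraries. It was -3.01 ± 0.49 on the log2 scale for Hist1h4i, -2.34 ± 0.36 for Hist1h1c and -2.12 ± 0.37 for Hist1h2bc, with edgeR adjusted p-values of 0.031, 0.029 and 0.037. These were the 3 members called lower of 36 tested, with 0 higher, against 0.148% lower and 0.0119% higher of 16858 genes. The calls were lost on library size alone and in 7 of the 12 fits that left out 1 library (without blood WT 01, WT 03, KO 02 or KO 04, or spleen WT 01, WT 04 or KO 04). Without spleen WT 02 only the call of Hist1h1c remained, and with DESeq2 size factors in edgeR the adjusted p of Hist1h2bc was 0.0501.

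Full separation in opposite directions, spleen label above in globin-rich and blood label above in globin-poor libraries, was seen for 5 members (Hist1h1c, Hist1h2bc, Hist1h2bn, Hist1h3c and Hist1h4i). Over 16849 genes tested the share was 0.457%. The reverse pattern was seen for 0 members and 1.58% of genes.

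**Figure D4:**
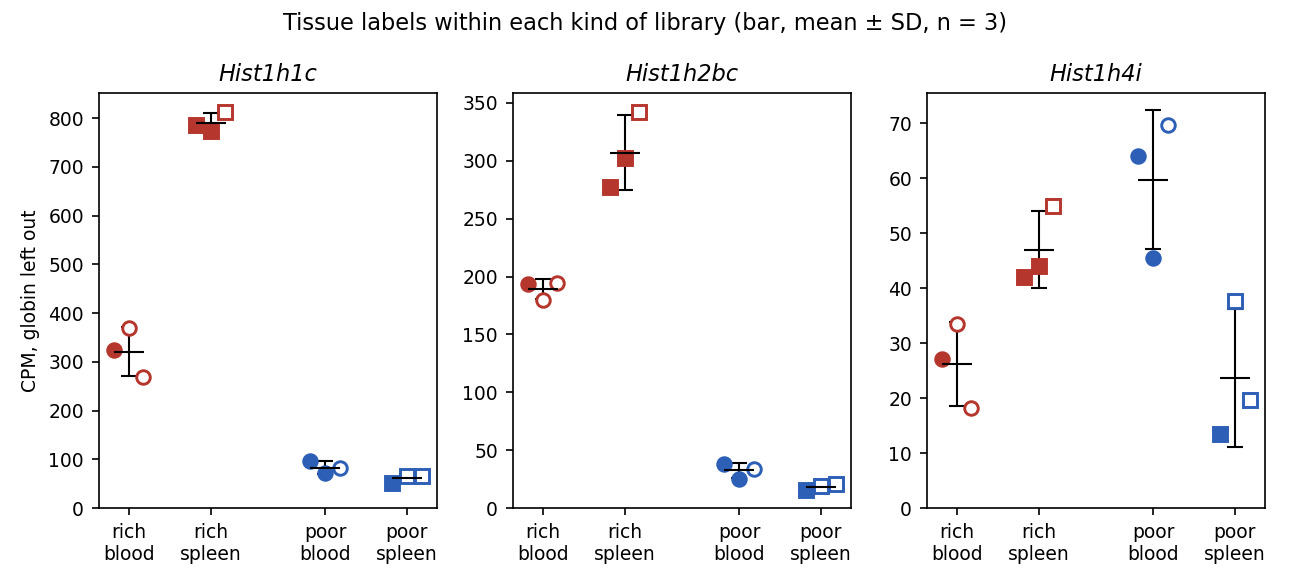
CPM with globin left out of Hist1h1c, Hist1h2bc and Hist1h4i by kind and label (points, libraries; line and bars, mean ± SD, n = 3). The spleen label is above the blood label in globin-rich libraries and below it in globin-poor ones for each gene.

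No member was called between KO and WT. In the blood label 31 members were tested, in the spleen label 25, in globin-rich libraries 17 and in globin-poor libraries 40, with 0 higher and 0 lower in each, against 0.0% of all genes in each direction (edgeR, adjusted p below 0.05). Unadjusted p-values below 0.05 were found for 1, 2, 1 and 0 members, counts given without their shares over all genes. The difference between the KO effects in spleen and blood was called for 0 of 36 members (2 with an unadjusted p below 0.05, again without the share over all genes). DESeq2 and limma-voom also called 0 members in all 5. Few members separated the genotypes fully in CPM. Under the blood label 1 tested member had every KO library above (0.127% of all genes) and 0 every one below (3.52%), and under the spleen label 0 (1.37%) and 1 (1.11%). In globin-rich libraries the counts were 0 above (8.3%) and 1 below (2.75%), and in globin-poor ones 1 above (2.18%) and 0 below (1.2%). The genotypes are uneven in kind within a label, with 1 globin-rich library of 3 in blood WT, 2 in blood KO, 2 in spleen WT and 1 in spleen KO, so label-wise values carry the kind as well.

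The KO values of the leading genes were spread widely. Under the blood label Hist3h2ba was at 8.06, 18.1 and 16.1 CPM (WT) against 14.7, 25.0 and 20.4 CPM (KO), groups that overlapped (log2 difference 1.10 ± 0.46 SE). Under the spleen label it was at 1.92, 10.7 and 8.31 CPM (WT) against 4.41, 3.11 and 3.59 CPM (KO). Its spleen effect minus its blood effect was -3.01 ± 1.10 (SE), with an edgeR adjusted p of 0.93. In spleen, Hist1h2bj, an H2B gene, differed by -3.45 ± 1.30 and Hist1h2ae, an H2A gene, by -2.59 ± 1.08 (SE, KO minus WT, log2), with edgeR adjusted p-values of 0.99. Their CPM overlapped between genotypes in each label.

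Within kinds, the globin-rich levels of Hist1h1c were 324, 785 and 774 CPM (WT) against 370, 269 and 812 CPM (KO). Its globin-poor levels were 96.5, 71.5 and 52.0 CPM (WT) against 81.8, 65.7 and 66.2 CPM (KO). For Hist1h2ap the globin-poor levels were 151, 91.8 and 21.5 CPM (WT) against 103, 75.6 and 48.0 CPM (KO). Neither gene separated the genotypes. In globin-rich libraries the smallest adjusted p was that of Hist1h2bj, at -2.50 ± 0.85 (SE, log2, edgeR adjusted p = 0.72). In globin-poor libraries the members' median difference was -0.07 on the log2 scale, and -0.003 over all genes tested. The members' direction turned with the setting: the median was 0.71, with 32 of 40 above 0, with the label as a term, 0.14 by limma-voom and 0.28 with the replicate block. With 1 library left out it ran from -0.56 (without blood KO 04) to 0.28 (without blood WT 03).

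Position along the cluster was set beside level as a description. The highest genes of the second block, Hist1h2bc and Hist1h1c, lay among low ones. In the first block Hist1h2ao, Hist1h4m, Hist1h4n and Hist1h2ap were consecutive members, and Hist1h4i lay apart from them among low ones. Head-to-head partners differed, as with Hist1h2ap (170 CPM per kb in globin-poor libraries) and Hist1h2br (0), and with Hist1h2ao (29.5) and Hist1h2bq (0.0174). The low values are uncertain, since Hist1h2br shares 88.7% and Hist1h2bq 97.3% of its 50-base stretches with other transcripts. Exon length also differs, at 2212 bases (Hist1h2br) and 2015 (Hist1h2bq) against 482 (Hist1h2ap) and 480 (Hist1h2ao). By 3′ end, models that ended at the stem-loop held 20.2% to 38.1% of histone counts in globin-poor and 2.68% to 5.58% in globin-rich libraries. Models that ran past it held 46.6% to 56.3% against 58.9% to 72.2%. These shares follow a few genes, not the class. Hist1h2ap and Hist1h2ao held 151 and 23.6 of the 184 CPM of models ending at the stem-loop in blood WT 03. Hist1h4n and Hist1h4m, of the same class, were higher in globin-rich libraries. Of models running past it, Hist1h1c held 812 of 900 CPM in spleen KO 03.

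**Figure D5:**
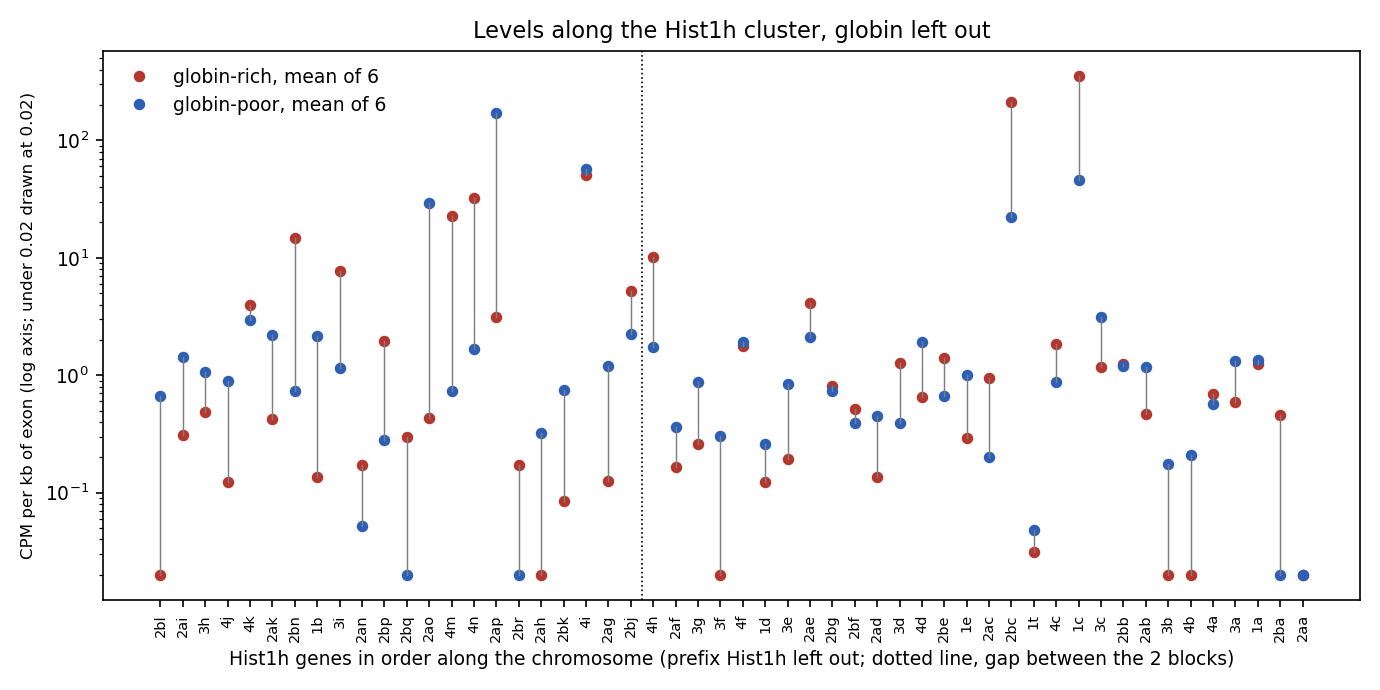
Mean CPM per kb of exon (log axis, under 0.02 drawn at 0.02) of the 52 Hist1h genes in chromosome order, in 6 globin-rich and 6 globin-poor libraries. Hist1h1c reaches 356 CPM per kb in globin-rich and Hist1h2ap 170 in globin-poor libraries, while most of the 52 genes stay low in both.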

How the data were processed

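The authors deposited raw counts per gene, 1 table per library, for 12 libraries (4 groups of 3). Total RNA went into the NEBNext Ultra II RNA kit, per the labels' protocols. HISAT2 2.0.4, HTSeq, Trimmomatic 0.36, SAMtools 0.1.19 and FastQC are listed, without roles, in the submitters' processing notes, with builds GRCm38 and mm10. The annotation release, strand setting and treatment of multiply mapped reads are not given in the sources used here. Identifiers were matched to GENCODE M21 (46091 of 46603).

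From the counts, CPM was computed with 11 globin genes left out. Libraries with globin above 25% of counts were called globin-rich, the rest globin-poor. Shares of globin had 95% Wilson intervals of at most ±0.0319 percentage points. Tests used edgeR 4.0.16 (filterByExpr, TMM, robust quasi-likelihood fit) over all genes, with Benjamini-Hochberg adjustment and a threshold of 0.05, in R 4.3.3. SE was taken as the log2 difference over the root of F. Alternatives were DESeq2 1.42.0, limma-voom (limma 3.58.1), other scalings, no filter, added terms, a fit with the replicate block, and fits without each library in turn. The fits were tested on simulated data. A 9th comparison, of label effects between kinds, was added after the data were seen. No pair of libraries agreed within sampling noise (smallest chi-square per degree of freedom 7.17).

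Named genes were drawn from the 2 highest members of each type per kb and the members outside Hist1h with a mean of at least 1 CPM. They were also drawn from up to 5 called members per direction and comparison (or the 2 with the smallest p). Hist3h2ba, Hist1h4h, Slbp, Npat, Casp8ap2, Lsm11 and Myo1c were added. Not every gene that these rules pick is described, and not for every comparison. Other named members were chosen after their values were seen. The members, lists and rules were chosen with earlier results of these data known.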

Additional observations from a re-analysis of the deposited data

Results flagged for a closer look

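The effect of the tissue label differed between globin-rich and globin-poor libraries for 3 histone genes, by a test of the difference itself (blood against spleen label in globin-rich minus the same in globin-poor libraries). It was -2.34 ± 0.36 (SE) on the log2 scale for Hist1h1c, -3.01 ± 0.49 for Hist1h4i and -2.12 ± 0.37 for Hist1h2bc, with edgeR adjusted p-values of 0.029, 0.031 and 0.037 (12 libraries). For each gene, all 3 spleen-labelled libraries were above all 3 blood-labelled ones in the globin-rich kind, and all below in the globin-poor kind. All 3 calls were lost on library size alone and in 7 of the 12 fits that left out 1 library, and Hist1h2bc also lost its call with DESeq2 size factors (adjusted p = 0.0501). The comparison was added after the data were seen.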

How the results depend on the processing

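The KO comparisons called 0 members under every alternative run, including each library left out. Between labels in globin-rich libraries, 4 members were called lower with no filter, 1 higher and 4 lower by DESeq2, and 1 lower by limma-voom, where edgeR called 0. Leaving out 1 library gave 0 to 4 lower. Between labels in globin-poor libraries, the single member called higher became 0 with DESeq2 size factors or library size alone, 7 with no filter and 15 by DESeq2, and 0 to 19 with 1 library left out. Between kinds, library size alone gave 8 higher and 8 lower, no filter gave 6 lower, and leaving out 1 library gave 12 to 17 higher and 2 to 5 lower. For the added difference of label effects, the 3 calls became 0 on library size alone, 8 with no filter, 6 by DESeq2 and 0 to 7 with 1 library left out. The cause of these shifts was not tested. Shares over all genes under these alternatives are not set beside the counts, so the counts describe the members' calls only. With the replicate block, 9 members were called higher between kinds in place of 14, and calls over all genes fell from 3531 to 1457 higher and from 4451 to 1695 lower. No other count of members called moved by over 1.5 times under the block. Same-numbered libraries correlated at -0.749 to 0.662, positive only within a kind. Kind was not removed from these correlations, so they cannot decide whether numbers mark pairs. The numbers were not taken as pairs. The block was not run within globin-rich libraries, between labels in globin-poor libraries, or for the added difference of label effects. Depth limits low members: 3 counts equal up to 0.733 CPM in globin-rich libraries.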
